A study of Mus musculus with 10 samples.

Results

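Unconverted 4-thiouridine (4sU) libraries were set against untreated libraries of NIH-3T3 cells, an established mouse fibroblast line. The 4 libraries were chosen by their labels, replicates A and B of each group, out of 10 libraries in the series. Treated cells were exposed to 4sU at 800 µM over 2 h and their RNA was sequenced without chemical conversion, whereas untreated cells received no nucleoside. A pair of libraries from cells given uridine at the same dose and for the same time served as the nucleoside control. The other 4 libraries came from 4sU-treated cells whose RNA was converted by SLAM or TUC chemistry. They entered the statistical fit to share its estimate of the spread. They thereby also entered its count filter, its letter term and the length offset described below. The SLAM libraries also gave the ratio of new to total RNA used further on. All groups shared 1 cell line, and the labels give no genotype. They also do not say whether A and B were separate cultures, so the p-values measure the spread between these libraries, which may be technical. Of 17053 genes listed, 12218 held enough counts to be tested. Gene counts summed to between 29047565 and 33785682 in the 4 libraries. Of 12 fibroblast markers, 12 stood above 1 CPM (here counts scaled by plain library totals), with summed levels of 19641 and 23207 CPM in untreated A and B and 19521 and 23917 CPM with 4sU. Summed endothelial markers reached at most 1.28 CPM and epithelial markers at most 0.275 CPM in any of these libraries. Macrophage markers summed to between 8.25 and 12.5 CPM, mostly Cd68, neuron markers to between 8.80 and 11.2 CPM, adipocyte markers to between 4.73 and 6.80 CPM, all of it Fabp4, and muscle markers to between 1.08 and 1.76 CPM, with Cldn4 and Adipoq at 0. CPM values of genes given further on are scaled with TMM factors.

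4sU is taken up by nucleoside transporters, phosphorylated by uridine-cytidine kinases and built into nascent RNA in place of uridine, which makes it a label for newly made transcripts. At high concentration it is known to disturb the processing of ribosomal RNA and to cause nucleolar stress, a state in which free ribosomal proteins bind Mdm2 and spare p53 from degradation. p53 is a transcription factor that raises genes of cell-cycle arrest, DNA repair and apoptosis, and through p21 and the DREAM complex it lowers genes of mitosis and DNA replication.

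The cells given 4sU differed from untreated cells in 2432 of 12218 genes (19.9%) at an adjusted p under 0.05 (edgeR quasi-likelihood test with the replicate letter as a block, Benjamini-Hochberg), with 4096 at an unadjusted p under 0.05. Of these, 851 genes (6.97% of those tested) were higher and 1581 (12.9%) were lower. Most differences were small. The median size of the log2 fold change was 0.24 among the higher and 0.33 among the lower genes, and 79 higher and 127 lower genes went past 1.5-fold. The block carried much of this precision, because without it 20 genes passed, 11 higher and 9 lower. The count also moved with single libraries, to 1056 without untreated A, 1996 without untreated B, 943 without unconverted 4sU A and 890 without unconverted 4sU B. The higher genes moved most, from 851 to 232, 553, 213 and 124 in that order, and the lower genes from 1581 to 824, 1443, 730 and 766. Fitting only the 4 libraries of the comparison raised it to 3901, and fitting the 6 unconverted libraries raised it to 3885.

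Uridine at the same dose gave almost no calls against untreated cells. Against uridine, 4sU called 2412 genes (19.7%), 792 higher and 1620 lower, a comparison that shares its 4sU libraries with the one above. Leaving out 1 library took that count to 929 (4sU A), 955 (4sU B), 1042 (uridine A) or 969 (uridine B), and dropping the block took it to 31. Uridine against untreated cells called 1 gene (0.00818%), with 380 at an unadjusted p under 0.05. DESeq2 with the same block called 0 there, as did edgeR without untreated A or without uridine A.

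Gene length ran through the whole comparison. Genes were ordered by the deposited length, whose definition the file does not give, and placed in 10 bins of equal number. The bin of shortest genes spanned 216 to 1345 bases and the bin of longest genes 6671 to 123179 bases. From shortest to longest, the median log2 fold change with 4sU was 0.14, 0.09, 0.07, 0.05, 0.02, -0.01, -0.01, -0.05, -0.10 and -0.16. Short transcripts therefore tended to read higher, and long transcripts lower, in the 4sU libraries. The longest bin lay 0.31 below the shortest on the log2 scale (-0.31), with -0.38 between the A libraries and -0.23 between the B libraries. No test was made of this value, because an exact permutation of 2 against 2 libraries cannot give a two-sided p below 0.333.

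**Figure D1:**
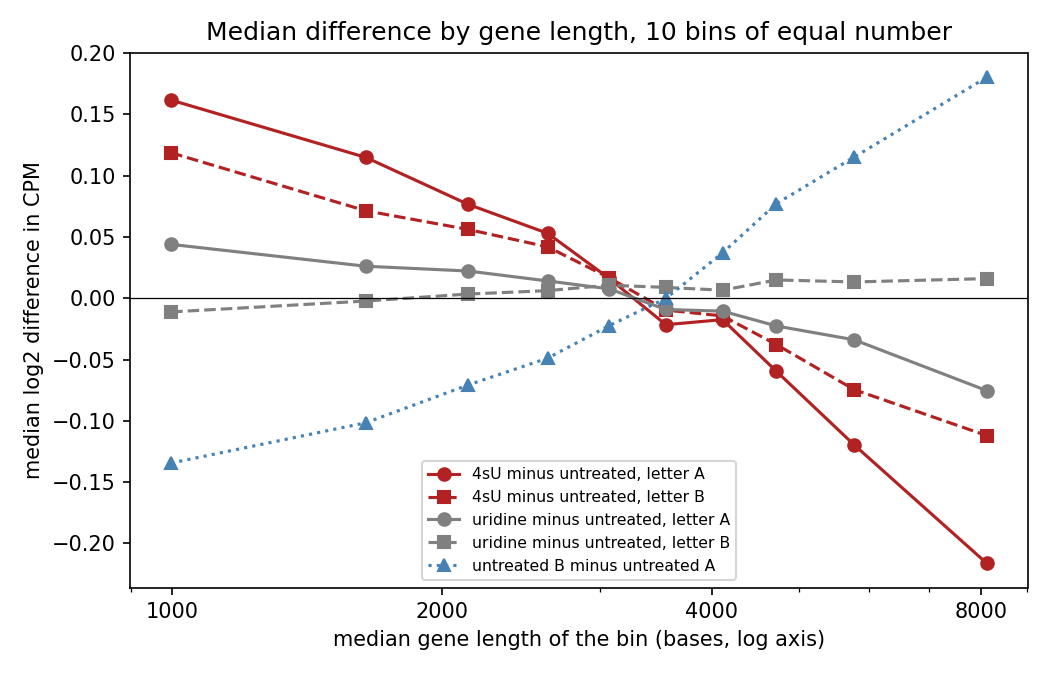
Median log2 difference in CPM (y axis) in 10 bins of equal gene number against the median gene length of each bin in bases (log x axis), drawn for each replicate letter as 4sU minus untreated and uridine minus untreated, and for untreated B minus untreated A. Both 4sU lines run downhill, from 0.16 to -0.22 in letter A and from 0.12 to -0.11 in letter B, while the untreated libraries differ from each other by a slope of the opposite sign, from -0.13 to 0.18.

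The same slope also separated libraries of 1 group. The longest bin minus the shortest, B minus A, was 0.31 in untreated cells, 0.47 with uridine and 0.48 with 4sU, so that letters of a group differed along length at least as much as 4sU differed from untreated cells. Relative to the mean of the 6 unconverted libraries, this value was -0.04 in untreated A and 0.28 in untreated B. It was -0.15 in uridine A, 0.30 in uridine B, -0.42 in 4sU A and 0.03 in 4sU B. Within each letter the 4sU library had the lowest value of the 3 groups. Uridine against untreated cells gave -0.05, with -0.12 in letter A and 0.03 in letter B, and 4sU against uridine gave -0.26, with -0.25 and -0.27. Without untreated A the value for 4sU against untreated cells was -0.20, and without untreated B it was -0.42.

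The slope had the same sign in every tertile of abundance and RNA turnover. Split into tertiles of mean CPM, the longest bin minus the shortest was -0.25 for weakly, -0.30 for moderately and -0.34 for strongly expressed genes. Split by the new-to-total ratio (NTR, an estimate of how much of each transcript pool is newly made, in a deposited column that does not name it, averaged over the SLAM libraries), it was -0.22 in the lowest, -0.28 in the middle and -0.23 in the highest tertile. Long genes also had higher NTR, from a median of 0.279 in the shortest bin to 0.722 in the longest. Across 12218 genes, which are not independent replicates, the Spearman correlation of log2 fold change with log2 length was -0.409.

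Calls followed the slope. In the shortest bin 208 genes (17.0%) were higher and 7 (0.573%) lower, and in the longest bin 18 (1.47%) were higher and 424 (34.7%) lower. A second fit therefore removed from each library a smooth curve of its deviation on log2 length before testing. Such an offset takes out any difference that depends on length, and a cellular response that depends on length cannot be told apart from a technical one in these libraries. With the offset 2533 genes passed (20.7%), 1206 higher (9.87%) and 1327 lower (10.9%), so the share of higher genes among those called was 35.0% without and 47.6% with it. That share was not stable under other settings. Without the offset it was 41.4% with RLE factors, 26.8% with library totals and 13.9% to 27.7% with 1 library left out. With a length offset from a spline it was 42.5%, from bin medians 44.7%, and 33.4% to 41.2% with the lowess curve and 1 library left out. The shortest bin then held 29 higher and 40 lower genes and the longest 212 higher and 190 lower. Leaving out untreated A, untreated B, 4sU A or 4sU B gave 1356, 1643, 1154 and 1054 calls with the offset, and leaving out the block gave 128.

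**Figure D2:**
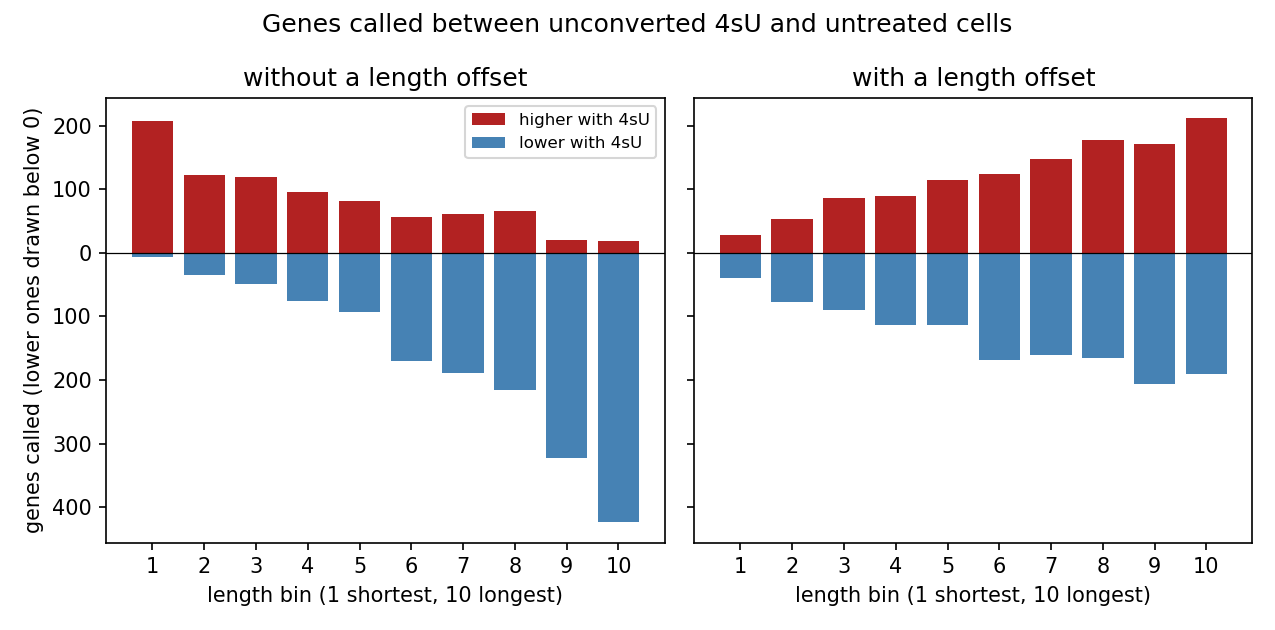
Number of genes called between unconverted 4sU and untreated cells in each of 10 length bins (x axis, 1 shortest to 10 longest), higher genes drawn above 0 and lower genes below 0, without (left) and with (right) the length offset. Without the offset the lower calls grow from 7 to 424 along length and the higher calls shrink from 208 to 18; with it both directions grow, from 29 to 212 and from 40 to 190.

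Of 851 higher genes 560 (65.8%) were also called higher with the offset, and of 1581 lower genes 1150 (72.7%) were also called lower. The shared genes made up 46.4% of the 1206 called higher and 86.7% of the 1327 called lower with the offset. No gene was called in opposite directions by these 2 fits (0 turned). The 291 higher calls lost were short, with a median length of 1170 bases, and the 646 gained were long, at 5378.5 bases. The 431 lower calls lost had a median length of 6930 bases and the 177 gained 2063 bases. Among genes past 1.5-fold the offset changed little, keeping 73 of 79 higher and 126 of 127 lower calls. With the offset, 474 genes of low NTR were higher (11.6%) and 141 lower (3.46%). In the middle tertile 228 were higher (5.60%) and 712 lower (17.5%). Of genes of high NTR 504 were higher (12.4%) and 474 lower (11.6%), near the 9.87% and 10.9% of all genes. The NTR was itself measured in cells given 4sU.

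Targets of p53 had the highest median of the 24 gene lists examined, with and without the offset. In every length bin except the shortest, where it was Ddit3, the named gene farthest above the bin's median was a listed p53 target. Of 45 targets tested, 24 (53.3%, against 6.97% of all genes) were higher and 1 (2.22%, against 12.9%) was lower, with a median log2 fold change of 0.28 against 0.01 over all genes. With the length offset 22 were higher and 1 lower, with a median of 0.25 against 0.02. Against uridine 23 were higher and 1 lower. Between 17 and 19 were higher when any 1 of the 4 libraries was left out, and 7 without the block. The list was drawn up with earlier results of these data known, so its count is no independent evidence.

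Cdkn1a (ENSMUSG00000023067), the gene of p21, which blocks cyclin-dependent kinases, stood at 85.6 and 89.3 CPM in untreated A and B and at 243.8 and 245.1 CPM in 4sU A and B, against 84.9 and 89.9 CPM with uridine. The 4sU libraries lay far above the other 4 and close to each other. The log2 fold change was 1.48 ± 0.0518 (SE), or 1.42 ± 0.0442 with the length offset (edgeR adjusted p = 3.33e-11 and 5.55e-14). Mdm2, the ubiquitin ligase that degrades p53, went from 63.4 and 63.7 CPM to 130.0 and 153.6 CPM (1.15 ± 0.0747, edgeR adjusted p = 5.38e-08). Trp53 itself, the p53 gene, had 222.8 and 219.1 CPM without and 243.5 and 219.4 CPM with 4sU, and did not pass (log2 fold change 0.06, edgeR adjusted p = 0.482).

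Other strongly raised targets served death signalling, arrest and stress control. Eda2r, a receptor of the tumour necrosis factor family, had 5.94 and 7.51 CPM in untreated A and B and 16.9 and 24.3 CPM with 4sU (log2 fold change 1.61 ± 0.101, edgeR adjusted p = 4.18e-08). Trp53inp1, a cofactor of p53, had 5.23 and 10.4 CPM without and 14.3 and 29.0 CPM with 4sU. Its B libraries stood above its A libraries in both groups, and the within-letter log2 differences of 1.44 and 1.48 lay close together. Btg2, an antiproliferative factor, went from 14.8 and 15.5 to 37.0 and 33.4 CPM, and Sesn2, a sestrin that restrains mTORC1, from 26.1 and 22.4 to 52.7 and 49.2 CPM. In all of these genes the lowest 4sU library was above the highest untreated library. They were named for their large changes in these libraries, so that gap is no separate evidence. How many of all genes show such a gap was not counted.

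Phlda3, an inhibitor of AKT, went from 54.8 and 59.7 to 119.1 and 117.3 CPM, and the microtubule-associated genes Psrc1 and Gtse1 went from 17.5 and 19.3 to 37.7 and 43.5 CPM and from 29.5 and 27.1 to 54.0 and 51.6 CPM. Ddias, an anti-apoptotic gene, rose by 1.01 ± 0.0829 on the log2 scale. The cyclin Ccng1 rose by 0.45 and the nuclease Aen by 0.49. Zmat3, a zinc finger RNA-binding protein of 7797 bases, lies in the longest bin, whose median was -0.16. It rose from 56.3 and 70.5 to 84.6 and 116.0 CPM, a log2 fold change of 0.65 and 0.83 with the offset, which by construction adds back the trend at that length. Bax, a pore-forming apoptosis gene of 1100 bases, lies at the other end, at 115.6 and 104.2 CPM without and 135.1 and 124.3 CPM with 4sU. Its log2 fold change of 0.24 passed (edgeR adjusted p = 0.00780), and with the offset it was 0.12 and did not (adjusted p = 0.0929). It also missed the threshold without untreated A (adjusted p = 0.0741) and without 4sU B (adjusted p = 0.146). Apaf1, the scaffold of the apoptosome, was the target that fell, from 33.7 and 42.4 to 22.7 and 33.4 CPM.

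**Figure D3:**
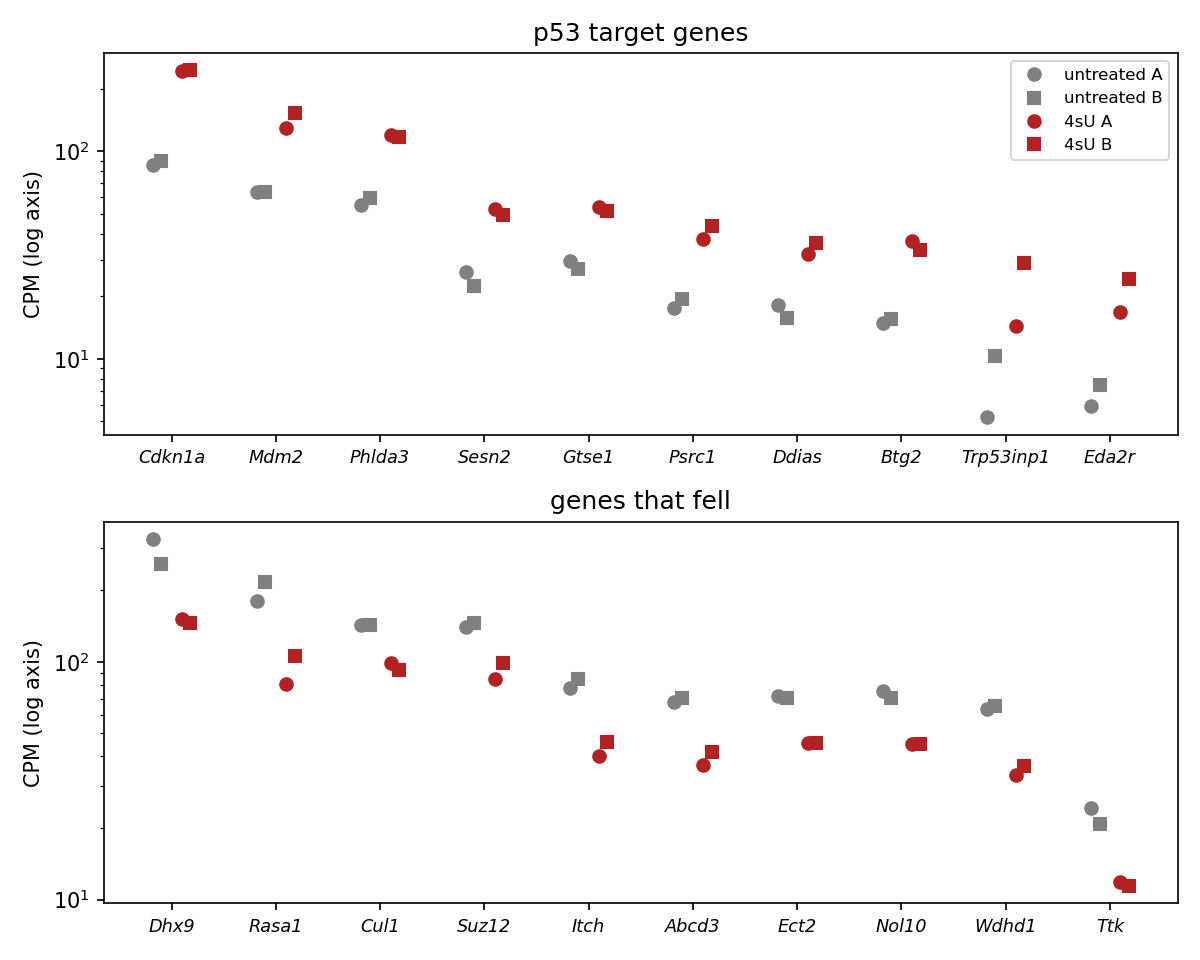
CPM (log y axis) of 10 p53 target genes (top) and 10 genes that fell (bottom) in each library, with untreated libraries in grey, 4sU libraries in red, circles for letter A and squares for letter B. The genes drawn were picked by these same values, so the gap between their 4sU and untreated libraries is no separate evidence. Cdkn1a goes from 85.6 and 89.3 to 243.8 and 245.1 CPM.

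Promoter windows of the raised targets were searched for the p53 response element, which is a pair of 10-base elements with a spacer of 0 or 1 base. The element reads the same on both strands, so 1 pass covers both. The windows, from RefSeq on GRCm38.p6, run from 250 bases before to 50 bases after an annotated start, and were matched by symbol for 9271 tested genes. A site with at most 1 mismatch among the 20 positions lay in 13 of these genes (0.14%), in 6 of the 37 p53 targets with a window (16.2%) and in 5 of the 21 such targets called higher (23.8%). It lay in 5 of 642 genes called higher (0.779%), all 5 of them listed p53 targets, and in 0 of 1250 called lower. At 0.14% of all genes, so rare a site leaves the 0 uninformative. With at most 2 mismatches the shares were 1.86% of all genes, 2.8% of genes called higher, 1.84% of genes called lower and 21.6% of the targets. The best matches of Btg2, Eda2r and Psrc1 had 4 mismatches and those of Mdm2, Sesn2, Phlda3 and Ddias 5, which says only that this window does not hold the letters. Printed 5′ to 3′ on the gene's strand with the site in capitals are the 250 bases before the starts of Cdkn1a (chr17:29090729-29090978, plus strand) and Ccng1 (chr11:40755287-40755536, minus strand), and the 30 bases around the start of Gtse1 (chr15:85859940-85859969, plus strand). These show the element at its best match in 3 targets that rose to different extents. Cdkn1a and Gtse1 each had 2 windows, at different annotated starts. In each of these genes only the printed window held a site with at most 1 mismatch.
Cdkn1a: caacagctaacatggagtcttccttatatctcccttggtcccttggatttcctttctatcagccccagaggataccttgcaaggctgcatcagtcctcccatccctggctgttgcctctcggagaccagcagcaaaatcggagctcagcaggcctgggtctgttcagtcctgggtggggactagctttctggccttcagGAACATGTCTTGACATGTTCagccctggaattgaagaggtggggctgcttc
Ccng1: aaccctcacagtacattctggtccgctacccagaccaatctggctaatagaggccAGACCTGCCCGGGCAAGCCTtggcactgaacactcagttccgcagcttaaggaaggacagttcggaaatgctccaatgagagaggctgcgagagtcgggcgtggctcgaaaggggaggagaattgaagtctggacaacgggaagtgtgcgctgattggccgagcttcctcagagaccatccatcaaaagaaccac
Gtse1: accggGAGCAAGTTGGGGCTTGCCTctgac

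Mitotic genes were lower. Of 50 genes of mitosis and the DREAM complex, 25 fell (50.0%, against 12.9% of all genes) and 0 rose, with a median log2 fold change of -0.19. The length offset left the picture nearly as it was, with 24 lower, 2 higher and a median of -0.16. Without 4sU A or without 4sU B 14 fell, without the block 3 did, and with the offset 14 fell without 4sU B. Ttk, a kinase of the spindle checkpoint, had 24.2 and 20.7 CPM in untreated A and B and 11.8 and 11.4 CPM with 4sU. Its log2 fold change was -0.95 ± 0.0806, or -0.96 with the offset (edgeR adjusted p = 1.2e-06 and 7.29e-08). Ect2, the exchange factor that starts cytokinesis, went from 71.8 and 70.5 to 45.6 and 45.6 CPM. The kinetochore gene Ndc80 fell by 0.56 and the kinesin Kif20b by 0.71 on the log2 scale.

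Of 50 genes of DNA replication, 10 fell (20.0%, against 12.9% of all genes) and 3 rose (6%, against 6.97%), around a median of -0.01. With the offset 12 fell and 5 rose, beside 10.9% and 9.87% of all genes. Higher calls were thus near the background in both fits. Without 4sU A 3 fell and 1 rose, and no gene rose without untreated A or 4sU B. With the offset 8 fell in each case, and 2, 4, 1 and 1 rose without untreated A, untreated B, 4sU A and 4sU B. Wdhd1, a replisome adaptor, had 63.2 and 64.9 CPM without and 33.5 and 36.3 CPM with 4sU, a log2 fold change of -0.88 ± 0.0876. Orc2, a subunit of the origin recognition complex, fell by 0.49, and Clspn, the adaptor of the replication checkpoint, by 0.46. Of 61 genes of DNA damage signalling and repair, 20 (32.8%, against 12.9% of all genes) fell and 0 rose, and with the offset 16 fell and 1 rose. The count of 20 became 12 without untreated A, 12 without 4sU A and 7 without 4sU B, and the 16 with the offset became 9 without either untreated library, 12 without 4sU A and 8 without 4sU B. Slf1, which recruits the SMC5/6 complex to damage, went from 20.0 and 20.0 to 12.2 and 11.1 CPM, and Gen1, a Holliday junction resolvase, from 17.1 and 15.3 to 9.14 and 9.70 CPM. The helicase Blm fell by 0.64, and by 0.56 with the offset. Brca2, a recombination gene of 10724 bases, fell by 0.65, and by 0.42 with the offset.

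Most of the largest decreases among genes of at least 10 CPM lay outside the cell-cycle lists. Rasa1, a GTPase-activating protein of Ras, had 181.0 and 217.4 CPM in untreated A and B, 182.8 and 219.5 CPM with uridine, and 81.1 and 105.5 CPM with 4sU. Its log2 fold change was -1.10 ± 0.0528, and -1.04 with the offset (edgeR adjusted p = 1.7e-09 and 1.56e-11). The RNA helicase Dhx9 went from 328.4 and 258.1 to 151.7 and 145.1 CPM, a log2 fold change of -0.98 ± 0.132. Lemd3, a protein of the inner nuclear membrane, fell by 0.91, Fam208a, a subunit of the HUSH silencing complex, by 0.91, the lipid kinase Pik3c2a by 0.88, the phosphatase Synj1 by 0.86 and the zinc finger gene Zmym4 by 0.84. With the offset Fam208a, Pik3c2a, Synj1 and Zmym4, all in the longest bin, had values between -0.74 and -0.68, and Lemd3, of 4743 bases, had -0.84.

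Some short genes went against their bins. In the 4 shortest bins, from 216 to 2857 bases, whose medians were above 0, the named genes farthest below their bin were Med4, a Mediator subunit, Nup37, a nucleoporin, Taf1b, a factor of RNA polymerase I, and Cstf3, which acts in 3′ end cleavage. Nup37 had 31.80 and 25.02 CPM without and 22.81 and 17.60 CPM with 4sU, a log2 fold change of -0.49 that was -0.59 with the offset. Cstf3 went from 39.7 and 34.2 to 22.9 and 19.1 CPM (log2 fold change -0.82 ± 0.0674, edgeR adjusted p = 9e-07). Abcd3, a peroxisomal transporter, was not among these short genes. It has 3489 bases, lay in a bin with a median of -0.01, and went from 67.7 and 70.7 to 36.8 and 41.7 CPM. Med4 fell by 0.29, with an adjusted p of 0.156 without untreated A, 0.0551 without 4sU A and 0.142 without 4sU B.

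Ubiquitin ligases and chromatin regulators, which are long genes, held many lower genes, and fewer with the offset. Of 37 ligases of the cullin and HECT families, 23 (62.2%, against 12.9% of all genes) fell and 0 rose, with a median log2 fold change of -0.31, and with the offset 18 fell and 2 rose with a median of -0.14. Their median length was 5420 bases, and in the bin from 5177 to 6670 bases 26.4% of genes were lower without the offset. Itch, which targets cell surface and signalling proteins, went from 77.4 and 84.7 to 40.2 and 46.1 CPM (log2 fold change -0.91, and -0.81 with the offset), and Cul1, the scaffold of SCF ligases, from 143.1 and 143.5 to 98.99 and 92.56 CPM (-0.58 in both fits). Ubr1, a ligase of the N-degron pathway with 7768 bases, fell by 0.73, and by 0.56 with the offset. Of 60 chromatin regulators, with a median length of 8008 bases, 22 (36.7%, against 12.9% of all genes) fell and 0 rose. That share was near the 34.7% lower in the bin of longest genes, which starts at 6671 bases. With the offset 14 fell and 9 rose, beside 10.9% and 9.87% of all genes and 15.5% and 17.3% of the longest bin. Their median moved from -0.18 to within 0.0001 of 0. Without untreated A 9 fell, without untreated B 32, without 4sU A 11 and without 4sU B 10. With the offset these became 5 lower and 7 higher, 12 and 3, 4 and 3, and 6 and 3 in the same order. Suz12, Ezh2 and Eed, the core of Polycomb repressive complex 2, fell in both fits. Suz12 went from 139.6 and 145.3 to 84.3 and 99.3 CPM, Ezh2 from 69.1 and 63.0 to 50.8 and 47.0 CPM and Eed from 49.2 and 51.2 to 38.5 and 40.3 CPM.

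Ribosomal protein and respiratory chain genes, which are short, gave the reverse case. Of 69 ribosomal protein genes with a median length of 1059 bases, 48 (69.6%, against 6.97% of all genes) were higher and 0 lower, with a median log2 fold change of 0.21. With the offset 19 were higher and 0 lower, with a median of 0.08, beside 9.87% of all genes higher. In the bin of shortest genes, 216 to 1345 bases, 17.0% of genes were higher without and 2.38% with the offset. The 48 calls became 5 without untreated A, 32 without untreated B, 10 without 4sU A and 1 without 4sU B, and 0 without the block. The 19 calls with the offset became 5, 10, 9 and 2 when the same libraries were left out. Many ribosomal protein genes have near-identical copies in the genome, and how reads of such copies were counted is not given and was not tested. Of 75 nuclear genes of oxidative phosphorylation, median length 1110 bases, 30 (40.0%) were higher and 0 lower. With the offset 10 of the 75 were higher, beside 9.87% of all genes and 2.38% of the shortest bin. Those 30 calls became 2 without untreated A, 28 without untreated B, 7 without 4sU A and 1 without 4sU B, and the 10 with the offset became 2, 6, 6 and 1. Ndufa12, a subunit of complex I, had 51.8 and 41.6 CPM without and 67.0 and 53.2 CPM with 4sU, a log2 fold change of 0.36, and 0.24 with the offset. The lowest 4sU library stood just above the highest untreated library.

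**Figure D4:**
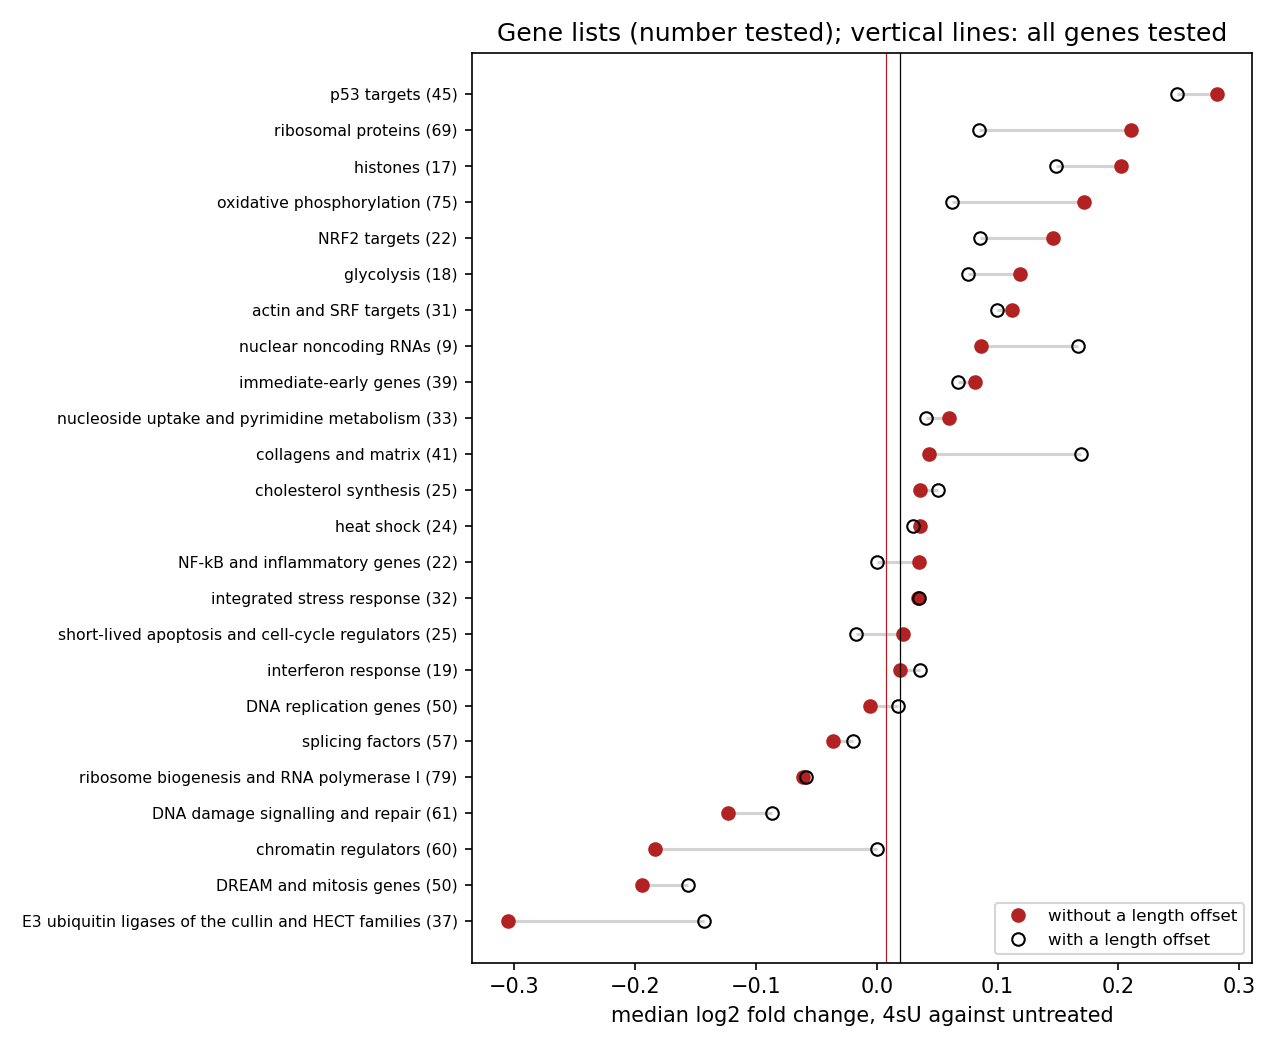
Median log2 fold change of 4sU against untreated cells (x axis) for 24 gene lists (y axis, number of genes tested in brackets), without (filled) and with (open) the length offset, with vertical lines at the medians of all genes tested. The p53 targets keep a median of 0.25 and the mitosis genes -0.16 with the offset, while ribosomal proteins go from 0.21 to 0.08 and chromatin regulators from -0.18 to about 0.

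Ribosome biogenesis did not follow the ribosomal proteins. Of 79 genes of ribosome assembly and RNA polymerase I, 22 (27.8%, against 12.9% of all genes) fell and 5 rose (6.33%, against 6.97%), and with the offset 21 fell and 7 rose. Leaving out any 1 library gave between 16 and 22 lower, and 2, 4, 2 and 1 higher without untreated A, untreated B, 4sU A and 4sU B. With the offset 3, 4, 2 and 2 were higher. Nol10, a nucleolar protein, went from 75.2 and 70.3 to 45.0 and 45.1 CPM, a log2 fold change of -0.69 ± 0.0623, and -0.69 ± 0.0581 with the offset. Tex10 and Noc3l, which act in maturation of the large subunit, fell by 0.58 and 0.59, and Taf1b, a promoter selectivity factor of RNA polymerase I, by 0.60. Taf1d, another subunit of that factor, rose by 0.33. Of 57 splicing factors 10 fell (17.5%) and 3 rose (5.26%), near the 12.9% and 6.97% of all genes, and with the offset 8 fell and 5 rose. Without untreated A 6 fell and 0 rose, without untreated B 10 and 2, without 4sU A 5 and 0, and without 4sU B 6 and 0. With the offset the same order gave 4 and 3, 9 and 3, 4 and 1, and 5 and 1. Besides Dhx9 these included Srsf5, a serine- and arginine-rich factor, which went from 303.2 and 387.9 to 246.2 and 315.8 CPM. That gene's groups overlapped, and the letters gave -0.30 each.

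Genes of the extracellular matrix, the main secretory product of fibroblasts, gained more higher calls with the offset than any other of the 24 lists. Of 41 collagens and matrix genes, median length 5348 bases, 6 rose (14.6%, against 6.97% of all genes) and 2 fell (4.88%, against 12.9%). With the offset 23 rose and 1 fell, beside 9.87% and 10.9% of all genes. Higher calls over all genes also went up with the offset, from 851 to 1206, and from 18 to 212 in the longest bin. Without the offset 0 rose when untreated A, 4sU A or 4sU B was left out and 2 without untreated B. With the offset 12 rose without untreated A, 16 without untreated B and 7 without either 4sU library, and 0 without the block. Col1a2, a chain of type I collagen, had a log2 fold change of 0.11 that did not pass and 0.21 with the offset, which did. Fn1, fibronectin, had -0.04, and 0.15 with the offset, where it passed. Plod2, a collagen lysyl hydroxylase, fell by 0.37, and by 0.34 with the offset, with an adjusted p of 0.0780 without 4sU B.

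Short-lived stress and signalling transcripts moved gene by gene. Of 39 immediate-early genes, 9 rose (23.1%, against 6.97% of all genes) and 1 fell (2.56%, against 12.9%), and with the offset 10 rose and 2 fell, beside 9.87% and 10.9% of all genes. Ptgs2, the inducible cyclooxygenase, had 616.2 and 519.1 CPM in untreated A and B and 1048 and 1009 CPM with 4sU (log2 fold change 0.86 ± 0.0591, edgeR adjusted p = 9.7e-08). Errfi1, an inhibitor of the EGF receptor, went from 189.5 and 205.5 to 260.9 and 273.5 CPM. Fos stood at 2.85 and 2.34 CPM without and 3.15 and 3.22 CPM with 4sU, and neither Fos nor Jun passed in either fit. Myc had a log2 fold change of -0.18 (edgeR adjusted p = 0.0632), and -0.22 with the offset (adjusted p = 0.0142). Without the offset the 9 rises became 4 without untreated A, 6 without untreated B, 3 without 4sU A and 5 without 4sU B, and the 10 with the offset became 9, 8, 5 and 7.

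Of 25 short-lived regulators of apoptosis and the cell cycle, 3 rose (12%, against 6.97% of all genes) and 3 fell (12%, against 12.9%). With the offset 5 rose and 2 fell, beside 9.87% and 10.9% of all genes. Without untreated A, untreated B or 4sU A 2 rose, and without 4sU B 1 did. The 5 rises with the offset became 3 without untreated B and 2 without any other of the 4 libraries. Txnip, an inhibitor of thioredoxin, went from 13.0 and 16.9 to 23.7 and 33.2 CPM. The anti-apoptotic genes Birc2 and Mcl1 fell by 0.54 and 0.40, Mcl1 from 209.6 and 202.9 to 153.9 and 159.1 CPM. In the integrated stress response ATF4 raises amino acid and stress genes. Of its 32 genes 6 rose (18.8%, against 6.97% of all genes) and 3 fell (9.38%, against 12.9%). With the offset 5 rose and 3 fell, beside 9.87% and 10.9% of all genes. Without untreated A, 4sU A or 4sU B 3 rose in either fit, and without untreated B 4 did, or 5 with the offset. Ddit3, the transcription factor CHOP, went from 27.4 and 27.9 to 41.7 and 38.4 CPM, and Ppp1r15a, a phosphatase subunit that restores translation, rose by 0.45. Slc7a11, the cystine importer, fell by 0.63 and is also a target of NRF2. Among NRF2 targets 9 of 22 rose (40.9%, against 6.97% of all genes) and 3 fell (13.6%, against 12.9%). With the offset 3 of these 22 rose and 2 fell, beside 9.87% and 10.9% of all genes. The 9 rises became 1 without untreated A, 4 without untreated B, 2 without 4sU A and 0 without 4sU B, and the 3 with the offset became 2 without untreated B and 1 without any other of the 4.

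Of 33 genes of nucleoside uptake and pyrimidine metabolism, which include those that handle 4sU itself, 4 rose (12.1%, against 6.97% of all genes) and 0 fell, and 4 rose and 1 fell with the offset, where 9.87% of all genes rose. The 4 rises became 1 without untreated A, 3 without untreated B, 2 without 4sU A and 0 without 4sU B in either fit. Uck1, a uridine-cytidine kinase that phosphorylates 4sU and uridine alike, had 41.1 and 36.9 CPM without and 50.7 and 45.1 CPM with 4sU (log2 fold change 0.30, edgeR adjusted p = 0.00268, and 0.0580 without 4sU B). Actb, a cytoskeletal reference gene, had a log2 fold change of 0.05 and did not pass. Gapdh, a glycolytic one, had 0.21 (edgeR adjusted p = 0.0630), and 0.23 with the offset (adjusted p = 0.0157).

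A few genes were nearly silent in untreated cells and measurable with 4sU. Of 52 genes higher by more than 2-fold, most stood below 10 CPM. Lsmem1, a small membrane protein, had 4 and 5 counts in untreated A and B and 151 and 228 counts with 4sU (log2 fold change 5.48 ± 0.253, edgeR adjusted p = 1.36e-09). Fam212b had 26 and 52 counts without and 235 and 293 counts with 4sU (log2 fold change 2.89 ± 0.167). In both genes every 4sU library was above every untreated library, and the offset left the log2 fold change at 5.44 and 2.96. These 2 genes were chosen after their values were seen. In the other direction 2 genes fell by more than 2-fold, Rasa1 and 2700049A03Rik, the second of which was likewise chosen after its values were seen.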

How the data were processed

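RNA was sequenced from NIH-3T3 cells in 10 libraries of 5 groups, 2 each, taken from the sample titles. The submitters' processing notes name STAR 2.7.10b, Bowtie2 2.3.0 and cutadapt; build, annotation, counter and strand setting: not given in the sources used here. The authors deposited unscaled expected counts per gene, which were rounded. The NTR was deposited as a fraction and a gene length in bases beside it, per the file headers. Of the values per library 46 columns were not used.

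Genes passing filterByExpr were scaled by TMM and tested in edgeR 4.0.16 (quasi-likelihood, R 4.3.3) on all 10 libraries together, with group terms and the letter as a block, on 4 residual degrees of freedom. Blocking on the letter was fixed by the rule set for this comparison. Gene by gene, the A to B difference of 1 group followed that of another (r from 0.584 to 0.690 in 10 pairs of groups). These values come from the same libraries and are no independent ground for the pairing. Letters of a group were not copies of 1 library (chi-square over its degrees of freedom 37.5 untreated, 43.2 with 4sU). The length offset was a lowess curve (span 0.3) of each library's deviation from the gene's mean log2 CPM (prior count 2). On simulated counts for 4sU against untreated with a length trend, 12121 genes passed the filter. The fit with the offset recovered 100 of 100 genes changed by 1 and 93 of 100 changed by 0.5 on the log2 scale. Without the offset 99 and 89 were recovered. False calls numbered 598 without and 15 with the offset. The simulated trend was the same in both letters, and letters did not otherwise differ. It therefore does not stand for the length slopes between letters of the real libraries.

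Named genes were called ones with a mean of 10 CPM or more in the higher group and the same sign in both letters: the 10 largest and 10 smallest log2 fold changes, the farthest above and below each bin's median, up to 4 per list, and 7 reference genes. Gtse1, Ccng1, Aen, Bax, Apaf1, Trp53, Clspn, Taf1d, Col1a2, Fn1, Lsmem1, Fam212b and 2700049A03Rik were named after their values were seen. The members and lists were chosen with earlier results of these data known. DESeq2 1.42.0 was an alternative.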

Additional observations from a re-analysis of the deposited data

How the results depend on the processing

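The length slope was -0.25 to -0.35 over 5 or 20 bins, genes over 8000 against under 1000 bases, other filters, scalings and the fit without the block, and -0.20 to -0.42 when single libraries were left out. Without the replicate block, calls fell to 20 for 4sU against untreated cells, 128 with the length offset, 31 against uridine and 0 for uridine against untreated cells; of the settings run, dropping the pairing by letter lowered the 4sU counts most. The 4 libraries alone called 3901 and the 6 unconverted ones 3885 genes. Leaving out 1 library gave 890 to 1996 calls against untreated cells, 1054 to 1643 with the offset, 929 to 1042 against uridine and 0 to 1 for uridine against untreated cells, where library totals and DESeq2 also gave 0. Why these counts moved was not tested. Of the 66 called genes among those named, 66 were kept with RLE factors, 66 with library totals, 65 of 65 with DESeq2, 65 with the length offset, 62 to 66 with 1 library left out and 16 without the block. Fn1 turned from -0.04 to 0.15 with the length offset. Without the block 0 chromatin regulators, 1 ubiquitin ligase and 2 ribosome biogenesis genes fell. Scaling by library totals moved the median log2 fold change of all genes from 0.01 to -0.01.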

Other observations

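The other groups held few calls, and the block was needed for nearly all of them. Of 24 heat shock genes 2 rose and 2 fell, of 25 genes of cholesterol synthesis 3 rose and 1 fell, and of 18 glycolytic genes 1 rose and 0 fell. Without 4sU A 0 genes of these 3 groups rose, and without 4sU B 0 did. Of 31 actin and SRF targets 5 rose and 1 fell, and 1 rose without untreated A, 4sU A or 4sU B and 4 without untreated B. Ankrd1, a mechanosensitive cofactor, had 60.5 and 35.1 CPM in untreated A and B and 81.5 and 61.0 CPM with 4sU, so that 4sU B stood just above untreated A, and the letters gave 0.43 and 0.79 on the log2 scale. Of 22 inflammatory genes 3 rose and 1 fell, among them the cytokine Lif, from 39.1 and 45.7 to 54.3 and 58.5 CPM. Of 19 interferon response genes 1 rose and 0 fell, and of 17 histone genes 3 rose and 0 fell. The histone count became 1 without either untreated library and 0 without either 4sU library, and the interferon count 0 without 4sU A. Of 9 nuclear noncoding RNAs 2 rose and 0 fell, and 4 rose with the offset; without untreated B 1 rose and 2 fell, and without 4sU B 0 rose. These counts stand against 6.97% higher and 12.9% lower over all genes tested.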
